A study of Mus musculus with 9 samples.

Results

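Syndecans, glypicans, versican and perlecan are proteoglycans, proteins that carry long sulfated sugar chains. The 10 genes described here, Sdc1, Sdc2, Sdc3, Sdc4, Gpc1, Gpc3, Gpc4, Gpc6, Vcan and Hspg2, code for their core proteins and were chosen by gene name from the 54532 genes of the deposited table. Of these, 9 had enough counts to be tested among 14004 genes, and Gpc3 did not. The counts come from ST2 cells, a mouse line of stromal cells from bone marrow, wild type and kept in culture for 72 h. There were 3 groups of 3 libraries each: vehicle (Veh), 50 ng/ml recombinant human Wnt3a (rhWnt3a), and 50 ng/ml rhWnt3a with 20 µM OSMI, an inhibitor of the O-GlcNAc transferase OGT (rhWnt3aOSMI). The titles name both agents for the third group whereas its treatment label names OSMI alone, and it was read here as both. No group with OSMI alone was analysed here, so an effect of OSMI in the absence of rhWnt3a cannot be told apart from an effect on the response to it. The authors call the 3 libraries of a group biological replicates, the sample labels do not say whether these were separate cultures, and the p-values measure the spread between these libraries.

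Syndecans span the cell membrane and glypicans are tied to its outer face by a lipid anchor. Both carry heparan sulfate, which binds Wnt proteins, fibroblast growth factors and other ligands and can present them to or hold them back from their receptors. Versican, which binds hyaluronan through its head domain and carries chondroitin sulfate, and perlecan, a heparan sulfate proteoglycan of basement membranes and of the matrix around cells, belong to the space between cells.

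Libraries held 16135898 to 17583945 counts in total, and 3 counts, taken as the floor of detection, corresponded to 0.170 to 0.191 CPM (counts relative to library totals scaled by TMM). In each group a library stood apart from the other 2. Veh replicate 3 differed from replicates 1 and 2 by mean squared log2 differences of 0.454 and 0.392, whereas those replicates differed from each other by 0.117. For rhWnt3a replicate 2 the differences were 0.411 and 0.373 against 0.111, and for rhWnt3aOSMI replicate 3 they were 0.442 and 0.437 against 0.119. A first axis of the deviations from the group means held 54.8% of their variance. Veh replicate 3, rhWnt3a replicate 2 and rhWnt3aOSMI replicates 1 and 2 had scores above 0 on it, and the other 5 libraries had scores below 0. Across genes, which are not independent replicates, the deviations of those 4 libraries correlated with log2 gene length at −0.315 to −0.193, and those of the other 5 at 0.0966 to 0.384. Hspg2 loaded on this axis more strongly than 98.9% of the tested genes and Gpc6 more than 95.0%, followed by Vcan (83.7%) and Sdc3 (76.9%), while Sdc1 exceeded only 4.97%. Values are therefore given for each library, and results that rest on these libraries are given also without the library of each group that stood farthest from the other 2 (3 left out together). The 2 rhWnt3aOSMI libraries that then remain lie on the other side of the axis from the remaining Veh and rhWnt3a libraries, so that in that fit the axis and OSMI cannot be told apart. That fit also keeps the libraries closest to each other, which makes its p-values small by choice. With all libraries kept, OSMI and the axis are still partly mixed. Replicates 1 and 2 of rhWnt3aOSMI lie above 0 on it, but only replicate 3 of Veh and replicate 2 of rhWnt3a.

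With rhWnt3a, no member passed the call. By edgeR's quasi-likelihood test, 0 of 9 were called up and 0 down, with BH adjustment to a p under 0.05 and a log2 fold change larger than 0.5 in either direction, where 2.92% of all tested genes were called up and 5.86% down. The count was also 0 at an unadjusted p under 0.05 and by DESeq2. In CPM, Gpc4 was higher in all 3 rhWnt3a libraries than in any Veh library and Sdc1 was lower, so 1 member stood apart in each direction. Among all tested genes the groups did not overlap, rhWnt3a higher, for 12.2%, and rhWnt3a lower for 14.2%. The median log2 fold change of the 9 members was −0.04, beside 0.04 for all tested genes. Their values ran from −0.45 for Sdc3 to 0.41 for Gpc4. Without the 3 outlying libraries 7 of the 9 had an adjusted p under 0.05, as did 35.2% of all genes tested in that fit, and all 7 stayed below the fold threshold: Gpc4 (0.47, adjusted p = 1.22e-05), Hspg2 (−0.46, 1.91e-05), Sdc3 (−0.48, 0.000127), Vcan (0.35, 0.00018), Gpc1 (0.35, 0.000636), Gpc6 (−0.42, 0.00143) and Sdc2 (0.19, 0.0209).

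When OSMI was added to rhWnt3a, Vcan, Sdc3 and Sdc1 fell and no member rose. These 3 of 9 members called down compare with 3.05% of all tested genes, and the 0 called up with 1.69% (0 up also at an unadjusted p under 0.05 with the fold threshold and by DESeq2). The count down was 1 without rhWnt3a replicate 3 and also without rhWnt3aOSMI replicate 2. With a 2-level term for the axis the count up was 1 (Hspg2). The rhWnt3aOSMI libraries lay below all rhWnt3a libraries for 4 members, the same 3 and Sdc2, and above them for 0, where the groups did not overlap for 17% and 16.7% of all tested genes. Against Veh the same 3 members were called down, beside 9.34% of all tested genes, and 0 were called up, beside 4.84%. Here too the count of rises was 0 at an unadjusted p under 0.05 with the fold threshold and by DESeq2. Groups did not overlap, rhWnt3aOSMI lower, for these 3 (19.5% of all tested genes), and rhWnt3aOSMI higher, for Gpc1 and Gpc4 (19.3%). The comparisons share libraries, so calls in different comparisons are not independent. No member differed in direction between scaling by TMM and by RLE in any of the 3 comparisons.

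**Figure D1:**
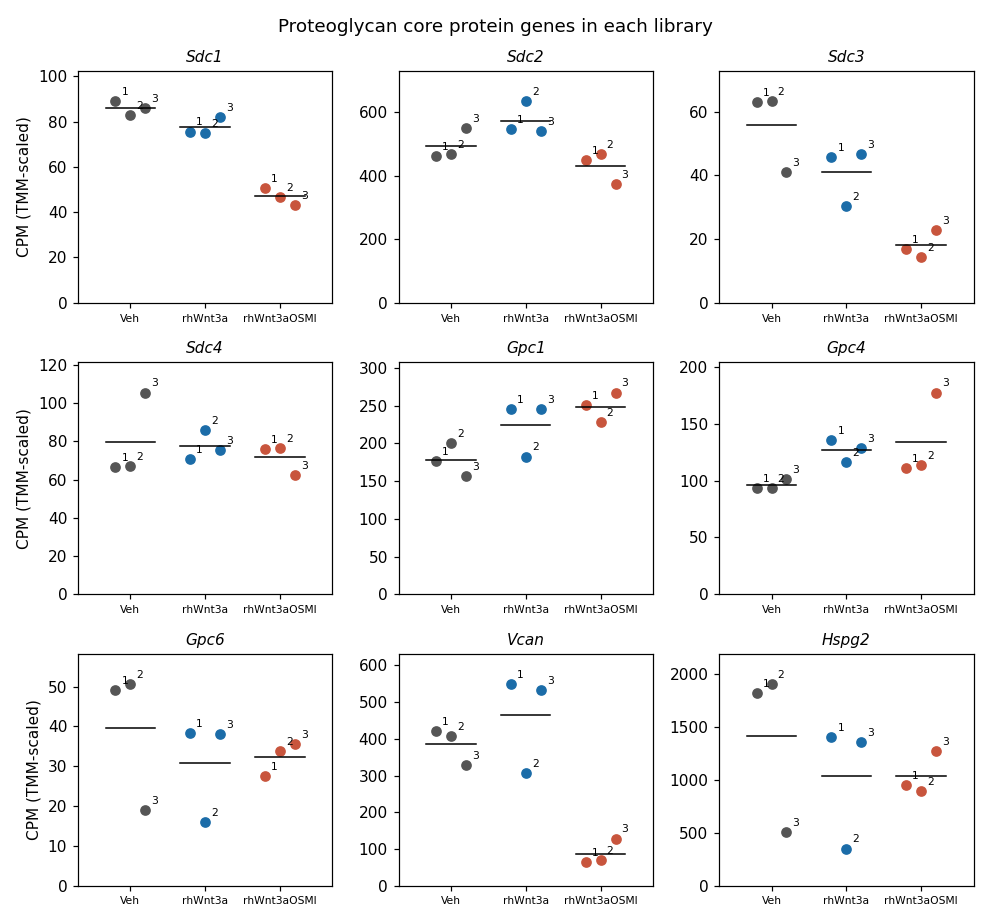
CPM (vertical axes, from 0, a scale for each gene) of 9 core protein genes in every library of the 3 groups (horizontal axes); points are libraries, numbered by replicate, and lines are group means. Vcan, Sdc1 and Sdc3 are lowest in the 3 rhWnt3aOSMI libraries, and Hspg2 and Gpc6 are lowest in Veh replicate 3 and rhWnt3a replicate 2.

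**Figure D2:**
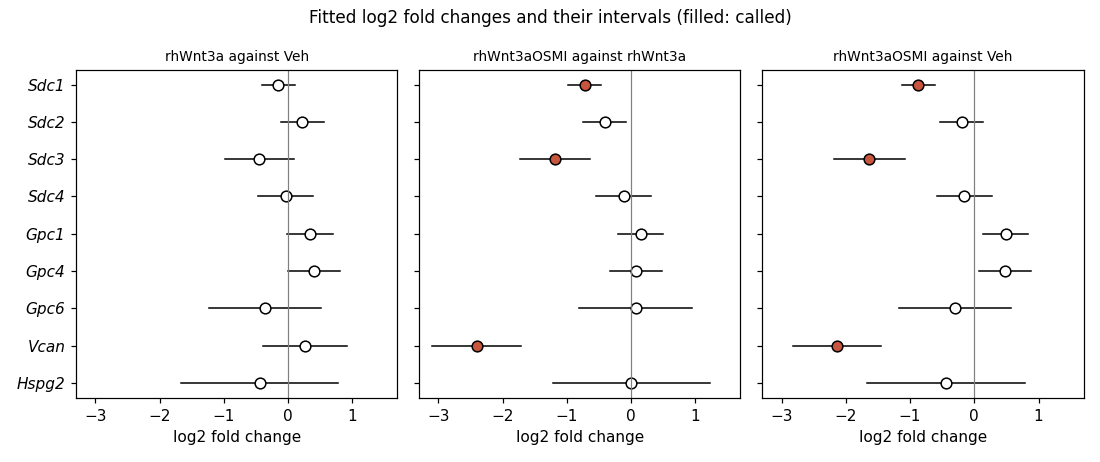
Fitted log2 fold changes (horizontal axes) of the 9 tested members (vertical axis) in the 3 comparisons, with 95% intervals as lines; filled points passed the call on adjusted p and fold. The filled points are Vcan, Sdc3 and Sdc1 in both comparisons of rhWnt3aOSMI.

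The promoters of Vcan and Sdc1, which fell with OSMI, are shown to describe the letters they hold. RefSeq promoters of build GRCm38.p6, 300 bases each, were searched for 6 of the 10 members: Sdc1, Sdc4, Gpc3, Gpc4, Vcan and Hspg2. Sdc2, Gpc1 and Gpc6 had no matched promoter, and that of Sdc3, which also fell with OSMI, was left out of the member search. The member counts below therefore do not cover Sdc3. The stretches ahead of the annotated starts are printed from 5′ to 3′ on the strand of the gene for Vcan (chr13:89742513-89742762, minus strand) and Sdc1 (chr12:8771146-8771322, plus strand), with GGGCGG, read on either strand, in capitals. A further GGGCGG of the Sdc1 promoter lies outside its printed stretch.

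Vcan: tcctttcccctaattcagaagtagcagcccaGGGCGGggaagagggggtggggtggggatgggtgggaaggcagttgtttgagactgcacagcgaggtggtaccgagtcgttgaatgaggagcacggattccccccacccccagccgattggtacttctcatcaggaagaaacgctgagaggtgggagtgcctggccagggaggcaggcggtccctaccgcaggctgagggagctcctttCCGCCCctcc
Sdc1: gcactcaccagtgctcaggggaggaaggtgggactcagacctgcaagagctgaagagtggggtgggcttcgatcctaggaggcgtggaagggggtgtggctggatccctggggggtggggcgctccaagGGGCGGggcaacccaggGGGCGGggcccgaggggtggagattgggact

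The cores bound by the TCF/LEF factors of Wnt signaling were searched on both strands. The letters CTTTGAA were in 5.14% of all 32851 promoters of 300 bases, the letters CTTTGAT in 3.73%, the letters CTTTGTT in 5.85% and the letters CTTTGTA in 3.64%, and at least 1 of these 4 was in 16.9%. None of the 4 was in any of the 6 member promoters, and no match says only that these letters are not in this window. GGGCGG, the core of the GC box, was searched after the data had been seen. It was in 6 of the 6 member promoters, including that of Gpc3, which was near 0 counts, and in 35.7% of all promoters. The letters TATAAA, also added then, were in 0 of the 6 and in 13.6% of all. The GC content of the 300 bases was 66.3% for Sdc1 and 61.0% for Vcan, above 84.4% and 73.1% of all promoters. It was 70.3% for Hspg2 and 70.7% for Gpc3, above 90.9% and 91.4%. The shares over all promoters were not matched on GC content. They cannot say whether GGGCGG, made of G and C only, is more frequent here than that content gives. A match is a description of letters and names no bound factor.

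Vcan codes for versican. Its counts came to 420.1, 406 and 329 CPM in Veh replicates 1 to 3, 549, 308 and 533 CPM in rhWnt3a replicates 1 to 3, and 64.9, 69.0 and 129 CPM in rhWnt3aOSMI replicates 1 to 3. All 3 rhWnt3aOSMI libraries lay far below the other 6, whereas Veh and rhWnt3a overlapped because rhWnt3a replicate 2 was below every Veh library. The group means were 385 ± 48.9 CPM with Veh, 463 ± 135 CPM with rhWnt3a and 87.5 ± 35.6 CPM with rhWnt3aOSMI (SD, n = 3). Against rhWnt3a the transcript was 5.30-fold lower with OSMI (log2 fold change −2.41, SE 0.31, edgeR adjusted p = 0.00377), a fold change larger in size than that of 99.6% of tested genes. Against Veh it was 4.40-fold lower (log2 fold change −2.14, SE 0.31, edgeR adjusted p = 0.00149). Both calls held in each of 23 alternative ways of processing, with log2 fold changes of −3.02 to −2.19 (adjusted p 7.97e-16 to 0.029) and −2.67 to −1.92 (adjusted p 1.08e-15 to 0.0118). The rhWnt3aOSMI library with the highest Vcan, replicate 3, is the one that stood apart in its group, and without the 3 outlying libraries the log2 fold changes were −3.02 and −2.67. With rhWnt3a alone the log2 fold change was 0.27 (95% interval −0.39 to 0.92), which did not pass the test. In bulk libraries fewer cells of a type and less RNA per cell cannot be told apart.

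Markers of cell types were summed beside Vcan. Of 9 stromal markers 8 were tested, Col1a2 was the most abundant at 7806 CPM over all libraries, and Thy1 was at 0 to 2 counts in the Veh and rhWnt3a libraries. Their sum was 25828, 27342 and 20752 CPM in Veh replicates 1 to 3, 20381, 17292 and 20243 CPM with rhWnt3a, and 9654, 8802 and 17194 CPM with rhWnt3aOSMI. Most of the sum came from collagen genes, and it was lowest in rhWnt3aOSMI replicates 1 and 2, where Vcan was lowest too. With OSMI added 2 of the 8 tested stromal markers were called down, Col3a1 (log2 fold change −1.99, edgeR adjusted p = 0.017) and Vcam1 (−0.96, adjusted p = 0.00666), and 0 up, while Col1a1 (−0.78), Pdgfra (−0.70), Col1a2 (−0.58), Pdgfrb (−0.09), Prrx1 (−0.06) and Cxcl12 (0.43) were not called. With rhWnt3a Prrx1 was called up (0.88) and Cxcl12 (−2.31) and Vcam1 (−0.93) down. Of the 7 chondrocyte markers 5 were tested, and all 5 fell with rhWnt3a. Their sum was 421 to 556 CPM with Veh, 96.0 to 122 CPM with rhWnt3a and 81.0 to 132 CPM with rhWnt3aOSMI, with Sox9 the most abundant over all libraries and Acan, the aggrecan gene, at 0 to 1 counts with rhWnt3a. The part of either marker list in the Vcan values was not tested. Endothelial and epithelial markers reached at most 0.428 and 0.244 CPM in sum, and 0 of the 4 in each list were tested. Haematopoietic markers reached at most 1.98 CPM in sum, Cd68 being the most abundant, with 1 of 4 tested. Adipocyte markers (3 of 5 tested, Cebpa the most abundant, Adipoq at 0 counts in every Veh and rhWnt3a library) summed to 63.3 to 82.1 CPM with Veh and 32.7 to 44.5 CPM in the other libraries. Of these, Fabp4 (−2.49, adjusted p = 0.000972) and Pparg (−1.73, adjusted p = 8.8e-05) were called down with rhWnt3a, and Pparg was called up with OSMI added (0.63, adjusted p = 0.0374). Of osteoblast markers only Runx2 of 6 was tested.

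Hspg2 codes for perlecan. It was at 1820.0, 1904 and 509 CPM in Veh replicates 1 to 3, at 1407, 352 and 1359.7 CPM in rhWnt3a replicates 1 to 3, and at 950.45, 895 and 1275 CPM in rhWnt3aOSMI replicates 1 to 3. The groups overlapped, and the low values belonged to the outlying libraries of Veh and rhWnt3a, which lay 3.66-fold and 3.93-fold below the mean of the other 2 libraries of their group. In rhWnt3aOSMI the outlying replicate 3 was instead the highest, 1.38-fold above the mean of the other 2. None of the comparisons passed the test. With OSMI added the log2 fold change was 0.0011 (95% interval −1.22 to 1.22, edgeR adjusted p = 0.999), and the intervals of the other comparisons were as wide, −1.66 to 0.78 for both. Without the 3 outlying libraries Hspg2 was called down in rhWnt3aOSMI, at log2 fold changes of −0.59 against rhWnt3a (adjusted p = 1.94e-06) and −1.05 against Veh (adjusted p = 2.28e-10), where rhWnt3a against Veh was −0.46. With a 2-level term for the axis it was called up against rhWnt3a (0.77, adjusted p = 0.0492) and was 0.31 against Veh (adjusted p = 0.383). Over the 23 alternatives the adjusted p ran from 1.94e-06 to 1 against rhWnt3a and from 2.28e-10 to 0.918 against Veh. With 1 library left out, the value against rhWnt3a was −0.39 without rhWnt3a replicate 2 and −0.17 without rhWnt3aOSMI replicate 3, and above 0 in the other 7 fits. With all libraries kept, the value against rhWnt3a was −0.16 with an offset for gene length and −0.23 with offsets for length and GC, and neither was called. The direction of Hspg2 in rhWnt3aOSMI thus differed with the libraries and with the fit used.

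**Figure D3:**
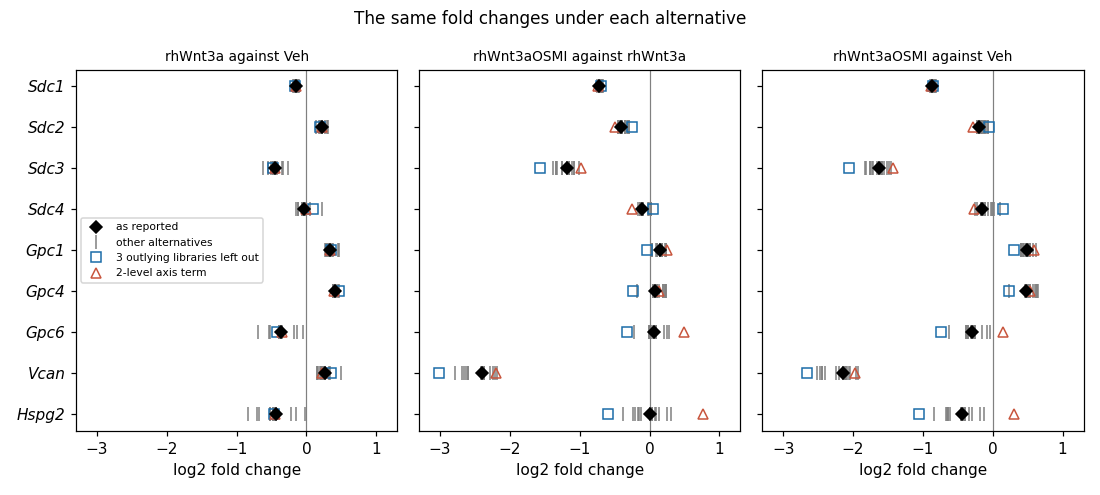
Log2 fold changes (horizontal axes) of the 9 tested members (vertical axis) in the 3 comparisons as fitted (diamonds), without the 3 outlying libraries (squares), with a 2-level term for the axis (triangles) and under the other alternatives (ticks). For rhWnt3aOSMI against rhWnt3a, Vcan stays between −3.02 and −2.19, while Hspg2 runs from −0.59 to 0.77.

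Among the syndecans, Sdc1 codes for the syndecan best known from epithelia and plasma cells. It was at 89.0, 82.8 and 86.0 CPM in Veh replicates 1 to 3, at 75.6, 74.9 and 81.8 CPM in rhWnt3a replicates 1 to 3, and at 50.8, 46.8 and 43.2 CPM in rhWnt3aOSMI replicates 1 to 3. No library overlapped with another group, and the outlying libraries were within 1.13-fold of the mean of the other 2 in every group. With OSMI added, Sdc1 was 1.65-fold lower than with rhWnt3a (log2 fold change −0.72, SE 0.11, edgeR adjusted p = 0.00926) and rhWnt3aOSMI was 1.83-fold below Veh (log2 fold change −0.87, SE 0.11, edgeR adjusted p = 0.000938). The call against rhWnt3a was lost without rhWnt3a replicate 3 (−0.68, adjusted p = 0.0512) and without rhWnt3aOSMI replicate 2 (−0.69, adjusted p = 0.0525), and over all alternatives its adjusted p ran from 1.54e-08 to 0.0525. The call against Veh held in all 23 alternatives (adjusted p 1.56e-13 to 0.00802). With rhWnt3a the log2 fold change was −0.15 (95% interval −0.40 to 0.10), which did not pass the test although all 3 libraries were below Veh.

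Sdc3 codes for a large syndecan known from nervous tissue and muscle. It was at 63.1, 63.4 and 41.1 CPM in Veh replicates 1 to 3, at 45.7, 30.4 and 46.8 CPM in rhWnt3a replicates 1 to 3, and at 17.0, 14.3 and 22.7 CPM in rhWnt3aOSMI replicates 1 to 3. The rhWnt3aOSMI libraries lay below the other 6, and Veh replicate 3 lay among the rhWnt3a values. The outlying library was 1.54-fold below the mean of the other 2 in Veh and 1.52-fold below it in rhWnt3a, and 1.45-fold above it in rhWnt3aOSMI. With OSMI added, Sdc3 was 2.27-fold lower (log2 fold change −1.18, SE 0.25, edgeR adjusted p = 0.0271), and against Veh 3.10-fold lower (log2 fold change −1.63, SE 0.25, edgeR adjusted p = 0.00205). The call against rhWnt3a was lost in 5 of the 9 fits that left out 1 library: without Veh replicate 2 (adjusted p = 0.0511), rhWnt3a replicate 1 (0.0906), rhWnt3a replicate 3 (0.10), rhWnt3aOSMI replicate 1 (0.11) and rhWnt3aOSMI replicate 2 (0.113). In these fits the log2 fold change lay between −1.16 and −1.01, and over all alternatives the adjusted p ran from 3.53e-10 to 0.113. With a block for the replicate number the call was lost too (−1.18, adjusted p = 0.0757). With the 2-level term for the axis the call held, at the smallest fold change of the alternatives (−0.985, adjusted p = 7.01e-05). The call against Veh held in all 23 alternatives (adjusted p 1.4e-12 to 0.0159). With rhWnt3a alone the log2 fold change was −0.45 (95% interval −0.98 to 0.09), which did not pass the test.

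Sdc2, the syndecan of mesenchymal cells, was at 460.2, 466 and 549 CPM in Veh replicates 1 to 3, at 546, 634 and 539 CPM in rhWnt3a replicates 1 to 3, and at 449, 466 and 374 CPM in rhWnt3aOSMI replicates 1 to 3. All rhWnt3aOSMI libraries were below all rhWnt3a libraries but overlapped with Veh. The log2 fold change with OSMI added, −0.41 (95% interval −0.75 to −0.08), did not pass the adjusted test (edgeR adjusted p = 0.143). Over the alternatives its adjusted p ran from 0.000866 to 0.381, and the call was made with the 2-level term for the axis (−0.50). Without the 3 outlying libraries it was smaller, −0.25 (adjusted p = 0.00509), and not called. Sdc4, which takes part in focal adhesions, ranged from 62.4 to 105 CPM, and its log2 fold changes of −0.04, −0.12 and −0.15 in the 3 comparisons were all smaller than their SE. Its highest value was in Veh replicate 3, 1.58-fold above the mean of the other 2. Without the 3 outlying libraries its log2 fold changes were 0.10, 0.05 and 0.15, the opposite sign in each comparison. The sign also changed for rhWnt3a against Veh without Veh replicate 3 (0.22) or rhWnt3a replicate 1 (0.06), and for rhWnt3aOSMI against Veh without Veh replicate 3 (0.10).

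Per kilobase of gene length (RPKM), Sdc2 was the most abundant syndecan in every library and Sdc3 the least. With Veh the levels were 139 ± 14.1 for Sdc2, 31.2 ± 8.80 for Sdc4, 22.6 ± 0.826 for Sdc1 and 9.32 ± 2.14 for Sdc3 (RPKM, SD, n = 3). Sdc4 was above Sdc1 in each of the 9 libraries. With rhWnt3aOSMI the levels were 122 ± 13.9, 28.1 ± 3.12, 12.3 ± 0.999 and 3.01 ± 0.716 RPKM in the same order. The summed level of the 4 syndecans was 190.4 to 227 RPKM with Veh, 209.96 to 238 RPKM with rhWnt3a and 146 to 177 RPKM with rhWnt3aOSMI, below all other libraries. In this sum the share of Sdc2 was 68.8% ± 0.397 with Veh against 73.8% ± 1.65 with rhWnt3a and 73.7% ± 0.974 with rhWnt3aOSMI (SD, n = 3). The share of Sdc1 was 11.2% ± 1.17, 9.28% ± 0.956 and 7.47% ± 0.46 in the 3 groups, and that of Sdc3 was 4.70% ± 1.45, 3.15% ± 0.890 and 1.87% ± 0.656 (SD, n = 3). That of Sdc4 was 15.2% ± 2.62, 13.8% ± 0.4999 and 17.0% ± 0.184 (SD, n = 3), higher in each rhWnt3aOSMI library than in any rhWnt3a library. The ranges of Veh and rhWnt3aOSMI did not overlap for the shares of Sdc1, Sdc2 and Sdc3. For Sdc4 that of rhWnt3aOSMI (16.8% to 17.2%) lay within that of Veh (13.7% to 18.3%). The ranges of rhWnt3a (2.13% to 3.70%) and rhWnt3aOSMI (1.35% to 2.60%) overlapped for Sdc3. No test was run on shares.

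**Figure D4:**
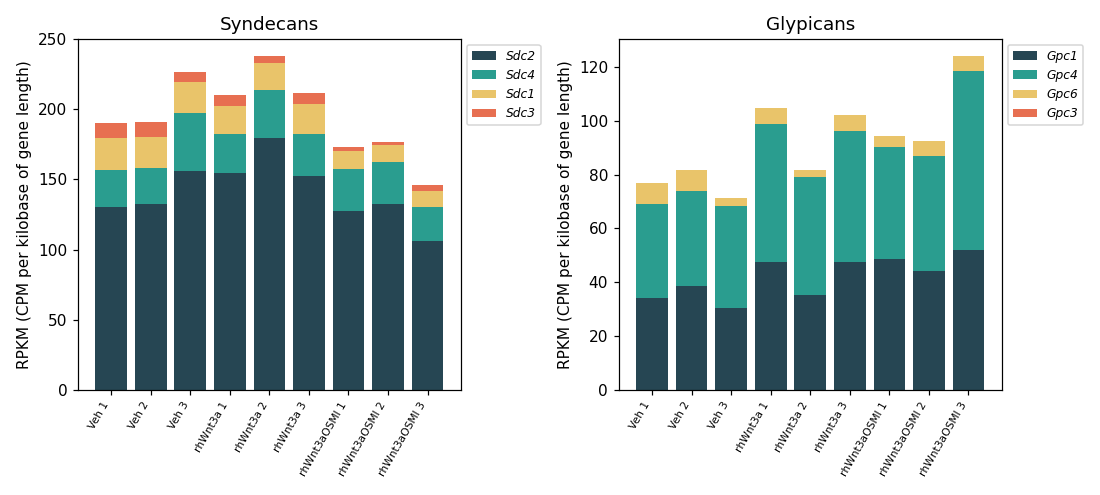
RPKM, that is CPM per kilobase of gene length (vertical axes, from 0), of the 4 syndecans and the 4 glypicans stacked for each of the 9 libraries (horizontal axes). Sdc2 makes up most of the syndecan level in every library, and Gpc1 and Gpc4 nearly all of the glypican level; Gpc3 is too low to be seen.

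Among the glypicans, Gpc1 and Gpc4 bind fibroblast growth factors and Wnt proteins through their chains. Gpc1 was at 176, 199.8 and 156 CPM in Veh replicates 1 to 3, at 246, 182 and 246 CPM in rhWnt3a replicates 1 to 3, and at 250.2, 229 and 267 CPM in rhWnt3aOSMI replicates 1 to 3. All rhWnt3aOSMI libraries exceeded all Veh libraries, and rhWnt3a replicate 2 lay within the Veh range. The log2 fold change of rhWnt3aOSMI against Veh, 0.49 (95% interval 0.13 to 0.84), did not pass the test (edgeR adjusted p = 0.0676). Without rhWnt3a replicate 2, which is not in either group but enters the shared fit, it was called (0.51, adjusted p = 0.0325), and with the axis term too (0.59, adjusted p = 0.000597). Without the 3 outlying libraries it was smaller, 0.31 (adjusted p = 0.00144), and not called. Over all alternatives its adjusted p ran from 0.000597 to 0.158. The exons of Gpc1 share 977 bases, 18.9% of their length, with Ankmy1 on the opposite strand, and since the strand setting of the counting is not given in the sources used here the reads of that stretch are uncertain. Ankmy1 itself held 2 to 5 counts in each library. Gm26716, on the opposite strand of Sdc3 over 6.93% of its exon bases, and Gm12970, over 0.802%, held 0 counts in every library.

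Gpc4 was at 93.1, 93.3 and 101 CPM in Veh replicates 1 to 3, at 136, 116 and 129 CPM in rhWnt3a replicates 1 to 3, and at 111, 113 and 177 CPM in rhWnt3aOSMI replicates 1 to 3. Both groups with rhWnt3a lay above Veh, and the high value of rhWnt3aOSMI came from its outlying replicate 3. The log2 fold changes against Veh, 0.41 with rhWnt3a (95% interval −0.0012 to 0.81, edgeR adjusted p = 0.253) and 0.48 with rhWnt3aOSMI (0.08 to 0.89, adjusted p = 0.107), did not pass the test. Without the 3 outlying libraries these were 0.47 (adjusted p = 1.22e-05) and 0.23 (adjusted p = 0.00887), below the fold threshold. With the axis term the second was called (0.53, adjusted p = 0.00855), and over its alternatives the adjusted p ran from 0.00855 to 0.262. Over those of the first it ran from 1.22e-05 to 0.51. Against rhWnt3a the log2 fold change with OSMI added was 0.08, and −0.18 without rhWnt3aOSMI replicate 3.

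Gpc6 was at 49.0, 50.7 and 19.1 CPM in Veh replicates 1 to 3, at 38.3, 16.1 and 38.0 CPM in rhWnt3a replicates 1 to 3, and at 27.5, 33.8 and 35.6 CPM in rhWnt3aOSMI replicates 1 to 3. Its low libraries were those of Hspg2, Veh replicate 3 (2.61-fold below the mean of the other 2) and rhWnt3a replicate 2 (2.37-fold below), and the groups overlapped. The log2 CPM of Gpc6 and Hspg2 had a Pearson correlation of 0.983 over the 9 libraries, a description only, since the libraries share the same outlying members. No comparison of Gpc6 passed the test. Against Veh the log2 fold change with rhWnt3aOSMI, −0.29 (95% interval −1.17 to 0.58), became −0.74 without the 3 outlying libraries, a call (adjusted p = 2.89e-06), and 0.15 with the axis term (adjusted p = 0.601). Its adjusted p ran from 2.89e-06 to 0.966 over the alternatives. With OSMI added to rhWnt3a it was 0.07, and −0.22 without rhWnt3a replicate 2 and −0.0053 without rhWnt3aOSMI replicate 3. Gpc3 held 2, 0 and 0 counts in Veh replicates 1 to 3, 3, 3 and 0 counts in rhWnt3a replicates 1 to 3, and 0, 3 and 4 counts in rhWnt3aOSMI replicates 1 to 3, at or near the floor of 3 counts, and no fold is given for it.

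On the RPKM scale, Gpc4 and Gpc1 stood side by side with Veh, at 36.1 ± 1.71 and 34.4 ± 4.22, and Gpc6 was far lower at 6.16 ± 2.76 (SD, n = 3). The first 2 did not differ beyond their spread between libraries in any group. Within libraries, Gpc4 was above Gpc1 in each of rhWnt3a replicates 1 to 3 (51.2 against 47.6, 43.9 against 35.4 and 48.6 against 47.6 RPKM). In Veh and in rhWnt3aOSMI their order differed between libraries. The summed glypican level was 71.4 to 81.8 RPKM with Veh, 81.8 to 105 RPKM with rhWnt3a and 92.4 to 124 RPKM with rhWnt3aOSMI, while Gpc1 held 44.7% ± 2.47, 45.1% ± 1.73 and 47.0% ± 4.89 of it (SD, n = 3). Among all 10 members with Veh, Sdc2 and Hspg2 (98.6 ± 54.7 RPKM) led and did not differ beyond the spread of Hspg2. Vcan, at 26.6 ± 3.38 RPKM with Veh, had a mean between those of Sdc4 and Sdc1. It was above Sdc4 in Veh replicates 1 (29.0 against 26.0 RPKM) and 2 (28.1 against 26.3 RPKM). Only in the outlying Veh replicate 3 was it below Sdc4 (22.8 against 41.4 RPKM). With rhWnt3aOSMI Vcan went to 6.05 ± 2.46 RPKM, below Sdc1 at 12.3 ± 0.999. Over all libraries the mean RPKM of Sdc2 exceeded that of 98.3% of the tested genes, that of Hspg2 96.5%, and that of Gpc6, the lowest tested member, 49.4%.

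Likeness over the 9 libraries was described by the Pearson correlation of log2 CPM, for Vcan, Hspg2 and the syndecan and glypican with the widest range of group means (Sdc3 and Gpc1), among 11566 genes with an average log2 CPM above 1. Most like Vcan were Fut11 (0.990), Capn6 (0.990) and Pcdh18 (0.989). Most like Sdc3 were Sorcs2 (0.988), Ccbe1 (0.987) and Pappa (0.981). Most like Hspg2 were Sned1 (0.995), 4931406P16Rik (0.992) and Myof (0.982). Gpc1 was most like Safb2 (0.988), Hif1an (0.985) and Zfp608 (0.984). These libraries fall into groups and share the axis described above, which such correlations include.

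The partners and enzymes of these core proteins were described by 7 lists. Other proteoglycan core proteins had 11 of 18 genes tested, and with rhWnt3a 0 were called up and 2 down (median log2 fold change −0.23). These were Ptprz1, a receptor phosphatase with chondroitin sulfate (−1.79, SE 0.17, edgeR adjusted p = 0.000166), and Cspg4, also known as NG2 (−1.76, SE 0.31, adjusted p = 0.00635). With OSMI added 1 was called up and 1 down (median 0.51): Ptprz1 (1.10, adjusted p = 0.0074) and Spock3, the testican-3 gene (−1.44, adjusted p = 0.00149). Against Veh rhWnt3aOSMI had 1 up and 3 down. Spock3 was at 38.0 ± 3.90 CPM with rhWnt3a and 14.0 ± 1.18 CPM with rhWnt3aOSMI (SD, n = 3).

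Hyaluronan and versican partners had 11 of 14 genes tested. With rhWnt3a 1 was called up and 2 down (median −0.19), namely Tnfaip6, whose product binds hyaluronan (1.32, SE 0.19, edgeR adjusted p = 0.00207), Hapln1, the link protein that ties versican to hyaluronan (−3.66, SE 0.41, adjusted p = 0.000457), and Tnc, the tenascin-C gene (−2.16, SE 0.36, adjusted p = 0.0042). Hapln1 went from 12.5 ± 4.40 to 0.980 ± 0.275 CPM (SD, n = 3). With OSMI added 0 were called up and 3 down (median −0.78), Has2, Tnfaip6 and Fbln2. Against Veh, rhWnt3aOSMI had 0 up and 6 down. Has2, a hyaluronan synthase, held 18, 18 and 22 counts in the rhWnt3a libraries and 1, 3 and 2 counts in the rhWnt3aOSMI libraries, at or under the floor, and the ratio of the summed counts was 0.103 (95% exact counting interval 0.0362 to 0.237). Tnfaip6 fell by 2.48 on the log2 scale (adjusted p = 0.000677), from 21.4 ± 3.34 to 3.84 ± 0.694 CPM (SD, n = 3). Like Vcan, 6 of the 11 tested genes of this list were lower in each rhWnt3aOSMI library than in any rhWnt3a library, Has2, Tnfaip6 and Fbln2 among them. In the other direction the groups did not overlap for 1 gene. Among all tested genes these shares were 17% lower and 16.7% higher.

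Genes of core protein cleavage and release, 15 of 18 tested, include proteases and their inhibitors, so the list has no common direction. With rhWnt3a 2 were called up and 1 down (median 0.24), Timp3, an inhibitor of shedding proteases (2.13, SE 0.27, edgeR adjusted p = 0.000939), Adamts5, a protease that cuts versican (0.75, SE 0.18, adjusted p = 0.0313), and Mmp2, a gelatinase (−1.18, SE 0.20, adjusted p = 0.00544). With OSMI added 0 were up and 3 down (median −0.60), among them Adamts4, also a versican-cutting protease (−1.97, SE 0.35, adjusted p = 0.0134), and Mmp2 again (−1.18, adjusted p = 0.0124). The call of Adamts5 was lost without Veh replicate 1 (adjusted p = 0.138), 2 (0.114) or 3 (0.0503), without rhWnt3a replicate 1 (0.0992) or 3 (0.123), and without rhWnt3aOSMI replicate 1 (0.0546). With OSMI added, the call of Adamts4 was lost without rhWnt3a replicate 1 (0.0502) or 3 (0.052) and without rhWnt3aOSMI replicate 1 (0.0755) or 2 (0.0508). That of Mmp2 was lost without the same 4 libraries (0.0505, 0.0554, 0.0798 and 0.0731). Over all alternatives the adjusted p ran from 5.71e-09 to 0.138 for Adamts5, from 1.03e-12 to 0.0755 for Adamts4 and from 1.33e-10 to 0.0798 for Mmp2. Adamts4 was at 96.8 ± 13.7 CPM with rhWnt3a and 24.7 ± 14.2 CPM with rhWnt3aOSMI (SD, n = 3). Against Veh 1 was up and 3 were down. Whether versican protein is cut more or less is not measured by these counts.

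Heparan sulfate editing outside the cell had 2 of 3 genes tested. Sulf2, a sulfatase that removes sulfate groups from finished chains, rose with rhWnt3a (log2 fold change 2.15, SE 0.23, edgeR adjusted p = 0.000319) and fell when OSMI was added (−1.07, SE 0.21, adjusted p = 0.0222). It was at 1.61 ± 0.210, 7.17 ± 0.756 and 3.42 ± 0.679 CPM in the 3 groups (SD, n = 3), and against Veh it was called up in rhWnt3aOSMI, so 1 gene was up, 1 down and 1 up in the 3 comparisons. The median log2 fold change of the 2 was 1.17 with rhWnt3a and −0.77 with OSMI added. Heparan sulfate assembly, 18 of 24 tested, had 2 called up and 0 down with rhWnt3a (median 0.05), 0 up and 1 down with OSMI added (median 0.04), and 2 up and 1 down in rhWnt3aOSMI against Veh. Hs3st1, a sulfotransferase, rose with rhWnt3a (2.62, SE 0.30, adjusted p = 0.000465) and fell with OSMI (−1.63, SE 0.28, adjusted p = 0.012), at 2.54 ± 0.691, 15.7 ± 0.645 and 5.07 ± 1.78 CPM in the 3 groups (SD, n = 3). Glce, the epimerase of the chain, was called up with rhWnt3a (0.62, SE 0.14, adjusted p = 0.0205), and the call was lost without Veh replicate 1 (0.0956) or 2 (0.0702) and without rhWnt3a replicate 1 (0.0707) or 3 (0.0986). The call of Sulf2 with OSMI added was lost in a fit of the 6 libraries compared (0.0541), without Veh replicate 2 (0.0511), without rhWnt3a replicate 1 (0.0548), 2 (0.0744) or 3 (0.0968), and without rhWnt3aOSMI replicate 1 (0.104) or 2 (0.105). Over all alternatives the adjusted p ran from 3.07e-08 to 0.0986 for Glce and from 0.000322 to 0.105 for Sulf2.

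Syndecan intracellular partners, 9 of 10 tested, had 0 called up and 1 down with rhWnt3a (median −0.23), 0 and 0 with OSMI added (median 0.16; 0 and 0 also at an unadjusted p under 0.05 with the fold threshold and by DESeq2) and 0 up and 1 down in rhWnt3aOSMI against Veh. The fall was that of Ezr, which codes for ezrin (−0.98, SE 0.12, edgeR adjusted p = 0.000592). Perlecan partners in the basement membrane, 10 of 10 tested, had 0 called up and 3 down with rhWnt3a (median −0.40), 0 up and 1 down with OSMI added (median −0.09) and 0 up and 2 down in rhWnt3aOSMI against Veh. With rhWnt3a the falls included Dag1, the dystroglycan gene (−1.59, SE 0.28, adjusted p = 0.00599), and Col4a1, a chain of type IV collagen (−1.22, SE 0.22, adjusted p = 0.00657). The fall with OSMI added was that of Fbln2, which codes for fibulin-2 and is also on the list of versican partners (−1.21, SE 0.23, adjusted p = 0.02). Its call was lost in a fit of the 6 libraries compared (0.0625), without rhWnt3a replicate 1 (0.0727) or 3 (0.0785), and without rhWnt3aOSMI replicate 1 (0.10) or 2 (0.0957), and over all alternatives the adjusted p ran from 1.39e-12 to 0.10. The median over all tested genes was 0.04, −0.01 and −0.0077 in the comparisons of rhWnt3a with Veh, of rhWnt3aOSMI with rhWnt3a and of rhWnt3aOSMI with Veh, and the percentages called are those given above for the members.

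**Figure D5:**
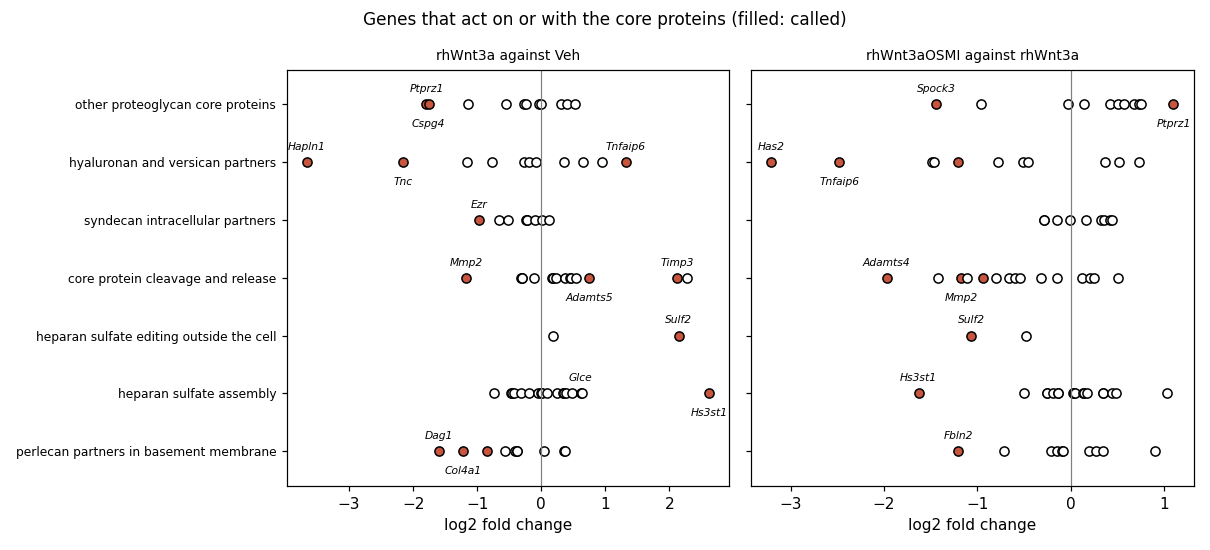
Log2 fold changes (horizontal axes) of every tested gene of the 7 lists (vertical axis) for rhWnt3a against Veh and for rhWnt3aOSMI against rhWnt3a; filled points passed the call, and up to 2 rises and 2 falls of each list are named. Hapln1 lies at −3.66 with rhWnt3a, and Has2 and Tnfaip6 lie lowest when OSMI is added, Has2 with counts at or under the floor of 3.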

How the data were processed

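Messenger RNA was measured in 9 libraries of ST2 cells, 3 for each of Veh, rhWnt3a and rhWnt3aOSMI, grouped by their titles. The authors deposited counts of reads per gene, whole numbers without normalization, with a gene length per gene. The submitters' processing notes name CASAVA, fastp, HISAT2 2.0.5, featureCounts 1.5.0-p3 and the build mm10, and the strand setting and annotation are not given in the sources used here. The 9 FPKM columns of the same libraries were not used, and neither were the authors' comparison columns (group means, log2 fold changes, p-values and adjusted p-values).

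The filter was filterByExpr (minimum count 10, minimum total 15) and the scaling TMM, in edgeR 4.0.16 under R 4.3.3. A quasi-likelihood fit of all 9 libraries on the 3 groups, without covariates, gave F tests for the 3 comparisons. These were adjusted by Benjamini-Hochberg over 14004 genes. A call needed an adjusted p below 0.05 with a log2 fold change larger than 0.5 in size. Log2 CPM used a prior count of 2. An exact permutation of 3 libraries against 3 cannot give a p under 0.1, so calls rest on the spread shared across genes. Fold changes, SE and intervals cover the spread between libraries, and the interval for Has2 covers counting error only.

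Members and lists were chosen with earlier results of these data known. All members are named. Of each list, up to 2 rises and 2 falls by log2 fold change among called genes are named for rhWnt3a against Veh and for rhWnt3aOSMI against rhWnt3a, and other genes were named after their values were seen. A symbol shared by several genes was taken as the gene with most counts. Alternatives were RLE scaling, other count filters, DESeq2 1.42.0, fewer libraries, a replicate block, gene length and GC offsets, a 2-level term for the axis and other call rules. The GC offset beside the length offset, with and without the block, and the letters GGGCGG and TATAAA were added after the data had been seen. The steps were tested on simulated counts. Exons came from GENCODE M21. At most 1.98% of the words of 50 bases of a member's longest transcript were found in a transcript of a gene that does not overlap it. No protein sequences were used. Lists and markers come from general knowledge. The floor of detection was 3 counts.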

Additional observations from a re-analysis of the deposited data

How the results depend on the processing

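The calls and fold changes of the members, the counts of calls of the lists and the named genes of the lists were recomputed under 23 alternatives, 2 of them chosen after the data had been seen (22 for Hapln1 and Has2, which did not pass the stricter count filter). Levels, shares, markers, correlations and overlaps of groups were not. The 0 members called with rhWnt3a against Veh stayed 0 in each direction under all of them. With OSMI added, members called down numbered 3, 1 to 3 when single libraries were left out, 4 without the 3 outlying libraries (with Hspg2) and 4 with the axis term (with Sdc2), and members called up numbered 0, and 1 (Hspg2) with the axis term. Against Veh, members called down numbered 3, and 5 without the 3 outlying libraries (with Gpc6 and Hspg2), and members called up numbered 0, 0 to 1 when single libraries were left out, and 2 (Gpc1 and Gpc4) with the axis term. Of 621 values of single members 578 kept their direction and side of the threshold, 8 lost the call, 7 gained it with the same sign and 28 changed sign.

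All 28 concern members that were not called, 1 of these fits made a call (Hspg2 without the 3 outlying libraries, −0.59), and the cause was not tested. For rhWnt3a against Veh, Sdc4 was 0.10 without the 3 outlying libraries and −0.16 to 0.22 without single libraries. For rhWnt3aOSMI against rhWnt3a without the 3 outlying libraries, Sdc4 was 0.052, Gpc1 −0.042, Gpc4 −0.24, Gpc6 −0.32 and Hspg2 −0.59. Without single libraries Gpc4 was −0.18 to 0.23, Gpc6 −0.22 to 0.28 and Hspg2 −0.39 to 0.31. With the gene length offset Sdc4 was 0.024, Gpc6 −0.0041 and Hspg2 −0.16, and with length and GC offsets Sdc4 was 0.017 and Hspg2 −0.23. For rhWnt3aOSMI against Veh, Sdc4 was 0.15 without the 3 outlying libraries, 0.0052 with the length offset and −0.25 to 0.10 without single libraries, and with the axis term Gpc6 was 0.15 and Hspg2 0.31.

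The sources used here do not say whether the replicate numbers pair the libraries. Deviations of same-numbered libraries correlated at −0.490 to 0.439 over 9 pairs. These deviations include the axis of the outlying libraries, so this check cannot exclude pairing. With the replicate block, members called down with OSMI added numbered 2, since Sdc3 (−1.18, adjusted p = 0.0757) lost its call, and so did Glce with rhWnt3a (adjusted p = 0.074) and Sulf2 with OSMI added (0.0734). With the block and the length offset, Sdc4 was 0.026 and Hspg2 −0.12 against rhWnt3a, and Sdc4 was 0.018 against Veh. In that fit Ptprz1 lost its call with OSMI added (log2 fold change 0.82, adjusted p = 0.0543). With the block, length and GC offsets, Sdc4 was 0.019 and Hspg2 −0.21 against rhWnt3a. Counts over all genes varied more: for rhWnt3a against Veh 409 up (217 to 946) and 821 down (470 to 1611), with OSMI added 237 up (58 to 1610) and 427 down (132 to 2423), and against Veh 678 up (362 to 1968) and 1308 down (819 to 2702). Of 966 counts over the lists, 780 stayed within 1.5-fold of their value. At 3 counts or fewer a level could not be told from 0. Among members and named genes of the lists this concerns Gpc3, Has2 in rhWnt3aOSMI and Hapln1 in rhWnt3aOSMI replicate 2. Some marker genes and the genes on the opposite strand of Gpc1 and Sdc3 also held such counts.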
